A study of Mus musculus with 18 samples.

Results

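Hyaluronan is a long, unbranched sugar chain that fills the space between dermal cells, holds water there and is made and broken down continuously. The 9 genes described here cover its synthesis (Has1, Has2, Ugdh), its breakdown (Hyal1, Hyal2, Cemip) and the proteins that bind it (Cd44, Tnfaip6, Vcan). They were chosen by name, with earlier results of these data known, and are 9 of the 32285 genes counted. RNA was counted in single cells of the dorsal dermis, captured in droplets, from 18 wild-type male C57BL/6J mice, 1 library per mouse, with no treatment. Mice were young adults with skin in telogen (the resting phase of the hair cycle), lived under a light-dark cycle with light and dark of equal length, and were taken every 4 h over 3 days. This gave 3 mice at each of 6 zeitgeber times (ZT, hours after lights on: ZT2, ZT6, ZT10, ZT14, ZT18 and ZT22), and replicates 1, 2 and 3 of a time came from different days. Fat and blood vessels were scraped from the skin, which was digested with collagenase and sorted for live cells in all 18 libraries, so that no group shows the tissue before dissociation.

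Hyaluronan synthases sit in the cell membrane and push the growing chain out of the cell. Has1 and Has2 are 2 of these enzymes, and Has2 is known as the main one in dermal fibroblasts. Ugdh turns UDP-glucose into UDP-glucuronic acid, which is 1 of the 2 sugars of the chain. Hyal2, at the cell surface, and Hyal1, in the lysosome, cut the chain, and Cemip takes part in hyaluronan breakdown by fibroblasts. Cd44 is the best known hyaluronan receptor of leukocytes and fibroblasts. Tnfaip6 (TSG-6) is a secreted protein, induced in inflammation, that joins heavy chains of inter-alpha-inhibitor to hyaluronan, and versican (Vcan) is a large proteoglycan that is anchored on it.

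In the GRCm38 annotation the genes lie on 7 chromosomes. Has1 (ENSMUSG00000003665) is at chr17:17843323-17855205, Has2 (ENSMUSG00000022367) at chr15:56665627-56694539 and Ugdh (ENSMUSG00000029201) at chr5:65413221-65435949, all on the minus strand. Hyal2 (ENSMUSG00000010047) at chr9:107567945-107572779 and Hyal1 (ENSMUSG00000010051) at chr9:107576927-107581710 are neighbours on the plus strand, and Cemip (ENSMUSG00000052353) is at chr7:83932857-84086502 on the minus strand. Tnfaip6 (ENSMUSG00000053475) at chr2:52038009-52056686 is on the plus strand, whereas Cd44 (ENSMUSG00000005087) at chr2:102811141-102901665 and Vcan (ENSMUSG00000021614) at chr13:89655312-89742509 are on the minus strand. Hyal1 overlaps Hyal3 and Naa80 on its own strand, so its reads may be split among them, and Has2, Hyal1, Hyal2 and Vcan overlap genes on the opposite strand (Has2os, Gm16343, Gm9917 and Gm4117).

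The promoter windows of 3 genes are shown because Has1 and Tnfaip6 differed most between fibroblast clusters and Ugdh and Tnfaip6 passed the rhythm test in clusters. Each window holds 250 bases before and 50 after the gene's start (RefSeq, GRCm38.p6), 5′ to 3′ on the gene's strand, which is chr17:17855139-17855438 (minus) for Has1, chr2:52037863-52038162 (plus) for Tnfaip6 and chr5:65435793-65436092 (minus) for Ugdh. Capitals mark matches to the motifs named below.
Has1: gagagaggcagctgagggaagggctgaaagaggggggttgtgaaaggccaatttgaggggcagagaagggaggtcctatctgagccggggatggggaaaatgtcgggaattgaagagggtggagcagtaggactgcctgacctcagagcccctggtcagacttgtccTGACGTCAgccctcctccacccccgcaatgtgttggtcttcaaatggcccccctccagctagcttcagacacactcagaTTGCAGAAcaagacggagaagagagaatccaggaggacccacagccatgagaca
Tnfaip6: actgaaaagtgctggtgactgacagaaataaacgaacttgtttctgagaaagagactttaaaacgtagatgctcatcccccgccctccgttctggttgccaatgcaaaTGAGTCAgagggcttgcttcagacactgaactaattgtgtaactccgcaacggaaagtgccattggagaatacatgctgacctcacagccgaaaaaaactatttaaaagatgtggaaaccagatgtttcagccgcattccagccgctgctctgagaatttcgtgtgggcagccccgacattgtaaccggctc
Ugdh: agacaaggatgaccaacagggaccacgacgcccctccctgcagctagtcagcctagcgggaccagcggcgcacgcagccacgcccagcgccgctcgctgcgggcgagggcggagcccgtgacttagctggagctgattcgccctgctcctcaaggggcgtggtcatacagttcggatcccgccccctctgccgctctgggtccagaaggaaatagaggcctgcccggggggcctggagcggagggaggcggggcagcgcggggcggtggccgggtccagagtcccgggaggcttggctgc

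Windows were found for 8 of the 9 genes, and 7 motifs were searched on both strands. The Has1 window held a cyclic AMP response element (CRE, TGACGTCA) 83 bases before the start, a motif held by 1.79% of 32851 windows of the same length, and a C/EBP motif (TTGCNNAA, 10.8% of windows) 4 bases before it. The Tnfaip6 window held an AP-1 motif (TGANTCA, 7.81% of windows), which proteins of the Fos and Jun families bind, 142 bases before the start. In the Cemip window, a TATA motif (TATAAA, 13.6% of windows) stood 29 bases before the start. The Ugdh window held none of the 7 letter strings, and no E-box (CACGTG, 7.15% of windows), D-box (TTANGTAA, 2.32%) or NF-kB motif (0.411%) was found in the 8 windows. No overlapping pair of matches was found in the printed windows, and a match describes letters and is no evidence of binding.

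Counts are of unique molecular identifiers (UMIs, 1 per captured transcript), and a level is the number of UMIs of a gene per 10000 UMIs, summed over the cells of a population in 1 library. Because reads come from the 3′ end, levels are not per length and are compared between populations and times, not between genes, and transcript forms of Cd44 and Vcan are not told apart. After the filter on cells, 16877 of 23990 barcodes were kept, 177 to 1998 per library, with 3777201 to 40094032 UMIs per library. Of these cells 12619 were fibroblast-like, in 10 clusters that each held 6 of 6 fibroblast markers, and 1870 were macrophage-like, in 2 clusters with 8 of 8 macrophage markers. At most 2 barcodes were shared by any pair of libraries. The clock genes Arntl and Dbp peaked at ZT22.6 and ZT9.88 in fibroblast-like cells (adjusted p = 4.226e-08 and 4.655e-08, edgeR), as a check of the time labels. Of the libraries, 2 stood apart. ZT18 replicate 1 held only 110 fibroblast-like cells, and in ZT14 replicate 1 the interferon-response cluster held 42.3% of the fibroblast-like cells, against at most 16.9% in the other libraries, and 92 of the 148 neutrophil-like cells came from that library.

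The synthesis genes had higher levels in fibroblast-like than in macrophage-like cells. Has1 had a level of 1.83 ± 0.571 (SD, n = 18 libraries; lowest 0.943, median 1.78, highest 2.85) in fibroblast-like cells and of 0.0431 ± 0.0475 (0 to 0.173) in macrophage-like cells. The 2 ranges did not overlap, and the ratio of the means was 42.5. Has2 was at 0.754 ± 0.294 (lowest 0.323, median 0.699, highest 1.56) in fibroblast-like cells, while in macrophage-like cells 8 of 18 libraries were at 0 and the highest was 0.0377. Ugdh was at 8.01 ± 1.37 (lowest 5.97, median 7.97, highest 11.9) in fibroblast-like and at 0.388 ± 0.219 (0.161 to 1.08) in macrophage-like cells, a 20.7-fold ratio. Ranked by UMIs of the gene, the top 1% of macrophage-like cells held 64.2% of 123 Has1, 93.1% of 29 Has2 and 36% of 950 Ugdh UMIs. In fibroblast-like cells these shares were 26.6%, 11.5% and 8.01%. Each of the 3 genes was higher in fibroblast-like cells in 18 of 18 libraries. These levels describe populations found by clustering, so no test is given, but none of the 9 genes was among those used to cluster. An unnamed cluster of 106 cells led by the immunoglobulin genes Igkc and Ighm, with at least 10 cells in 3 libraries, had Has2 and Ugdh levels near the fibroblast-like ones. Its leading immunoglobulin genes went against a fibroblast-like name, so it was left unnamed. There Has1 was at 0.925, 1.28 and 7.19, the last above the highest fibroblast-like library (2.85). Has2 was at 0.852 ± 0.111 and Ugdh at 6.62 ± 2.81 in that cluster (SD, n = 3).

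The binding proteins made for the matrix showed the same split. Tnfaip6 was at 3.80 ± 1.73 (lowest 1.79, median 3.29, highest 7.73) in fibroblast-like cells and at 0.0598 ± 0.0635 in macrophage-like cells, and Vcan was at 1.42 ± 0.523 against 0.0344 ± 0.0314, where 6 of 18 libraries were at 0. Both were higher in fibroblast-like cells in 18 of 18 libraries. The top 1% of macrophage-like cells held 74.2% of their Tnfaip6 and 78.5% of their Vcan UMIs, against 29.4% and 8.28% in fibroblast-like cells. At the level of cells, 51.4% of fibroblast-like cells and 3.58% of macrophage-like cells had a Tnfaip6 UMI, with a median of 21868 and 11973 UMIs per cell. In muscle-like cells, which should lack the gene, 1.63% of 735 cells had one at a median of 6601 UMIs. Thinned to 5000 UMIs per cell, the shares were 30.5%, 1.50% and 0.805%, after leaving out 388, 270 and 238 shallower cells.

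The receptor and the hyaluronidases showed the reverse order. Hyal1 was at 0.0253 ± 0.00583 in fibroblast-like cells and at 0.106 ± 0.0545 in macrophage-like cells, which were higher in 17 of 18 libraries. Hyal2 was at 0.0497 ± 0.01002 (0.0354 to 0.0715) and 0.283 ± 0.0977 (0.124 to 0.537), and Cd44 at 0.381 ± 0.231 and 1.50 ± 0.731, both higher in macrophage-like cells in 18 of 18 libraries. The ranges of Hyal2 did not overlap. These genes were counted sparsely, with 696 Hyal1 and 1312 Hyal2 UMIs over all fibroblast-like cells and 284 and 738 over all macrophage-like cells. Of macrophage-like cells 10.4% had a Hyal1 UMI and 27.5% a Hyal2 UMI, of fibroblast-like cells 5.28% and 9.50%, and of muscle-like cells 0.136% and 1.77%. After thinning to 5000 UMIs, the Hyal2 shares were 13.6%, 2.49% and 0.805% in that order. Cemip could not be studied at this depth: 4 UMIs were counted in all kept cells, 3 of them in fibroblast-like cells.

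Within the macrophage-like cells, the hyaluronidases and Cd44 were set apart by a small cluster led by Hbegf and Hmox1 (180 cells), in which at least 10 cells were found in 7 libraries. Its Hyal1 level was 0.517 in ZT2 replicate 1, 0.730 in ZT6 replicate 1, 0.840 in ZT6 replicate 3, 0.688 in ZT10 replicate 1, 0.935 in ZT10 replicate 2, 0.218 in ZT14 replicate 3 and 0.753 in ZT22 replicate 1. Each was above the level in the cluster led by Fcna and Cd209f (1690 cells) of the same library, where the mean was 0.0643, a ratio of 10.4. Hyal2 was at 0.597 ± 0.138 (0.388 to 0.791) in the Hbegf/Hmox1 cluster and at 0.271 ± 0.0414 in the Fcna/Cd209f cluster of those 7 libraries, again higher in 7 of 7. From 5 to 22 Hyal2 UMIs stood behind each of the 7 values. The cluster's inflammatory gene level (Cxcl1, Cxcl2, Il6, Ptgs2, Ccl2, Ccl7, Nfkbia and Lif, summed) was 202 ± 50.2, against 21.4 ± 10.6 in the Fcna/Cd209f cluster of those libraries, while the immediate early gene level (Fos, Fosb, Jun, Junb, Egr1, Atf3, Ier2 and Nr4a1, summed) was 72.1 ± 22.2 against 88.4 ± 25.9. The part of either list in the difference was not tested, and neither list was kept out of the clustering.

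Cd44 differed in steps across the leukocyte clusters. It was at 16.3 and 18.8 in the neutrophil-like cells of the 2 libraries that had at least 10 of them (ZT14 replicates 1 and 2). The Hbegf/Hmox1 cluster was at 9.21 ± 2.95 (n = 7, 5.41 to 13.6), the cluster led by Lyz1 and Ear2 at 6.16 ± 2.68 (n = 17), and the Gzma/Nkg7 cluster of natural killer and innate lymphoid-like cells at 2.55 ± 0.852 (n = 11). The Fcna/Cd209f cluster was at 0.852 ± 0.504, fibroblast-like cells at 0.381 and muscle-like cells at 0.00910 ± 0.0152. From the Hbegf/Hmox1 cluster down, each step was larger than the SD of its paired differences, and Lyz1/Ear2 cells exceeded Fcna/Cd209f cells 7.07-fold in 17 of 17 shared libraries. Hyal2 followed a different order, at 0.0207 ± 0.0173 in the Lyz1/Ear2 cluster, below the Fcna/Cd209f cluster in all 17 libraries.

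**Figure D1:**
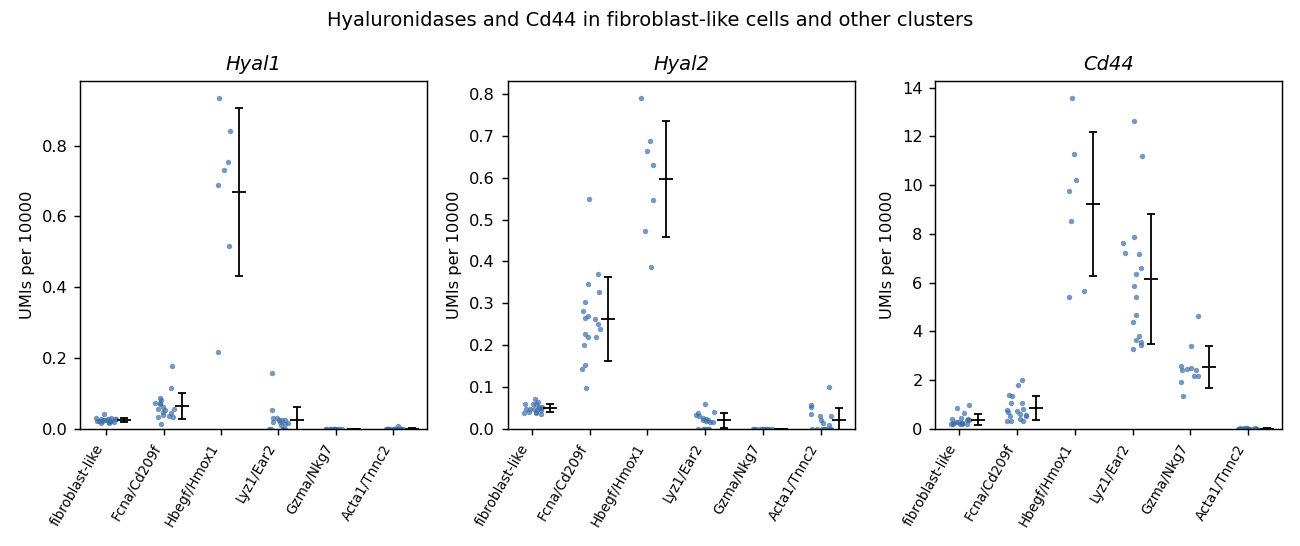
Levels (UMIs per 10000, y axis) of Hyal1, Hyal2 and Cd44 in fibroblast-like cells, the macrophage-like clusters Fcna/Cd209f and Hbegf/Hmox1, and the Lyz1/Ear2, Gzma/Nkg7 and Acta1/Tnnc2 (muscle-like) clusters. Points are libraries and bars are the mean ± SD; the Hbegf/Hmox1 cluster has the highest mean level of each gene in the plot, and Cd44 is also high in the Lyz1/Ear2 cluster.

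Among the 10 fibroblast-like clusters, which are called here by 2 of their leading genes, Has1 and Tnfaip6 varied most. Has1 was at 5.22 ± 1.47 (n = 17) in the Ptgs2/Cxcl10 cluster, at 4.60 ± 2.04 (n = 16) in the Gdf15/Cthrc1 cluster and at 3.47 ± 2.16 (n = 15) in the Cilp/Thbs4 cluster. It then fell through 1.76 ± 0.741 (Krtdap/Akr1c18), 1.18 ± 1.31 (Apoe/Steap4), 0.709 ± 0.256 (Cxcl13/Des), 0.528 ± 0.392 (Ifit1/Rsad2), 0.473 ± 0.167 (Krtdap/Adamts16) and 0.262 ± 0.172 (Sult1e1/Cxcl13) to 0.202 ± 0.122 (AY036118/Gm42418). Neighbours in this order differed by less than the SD of their paired differences, save Krtdap/Adamts16 above Sult1e1/Cxcl13 (14 of 16 libraries). The Ptgs2/Cxcl10 cluster exceeded the Cxcl13/Des cluster, the largest of all (2351 cells), 7.18-fold in 16 of 16 libraries, and the ranges (2.18 to 6.87 and 0.409 to 1.19) did not overlap. With 13.1% of the fibroblast-like cells, the Ptgs2/Cxcl10 cluster held 43.2% of their Has1 UMIs.

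Tnfaip6 had a different leading cluster. Its level was 24.2 ± 6.65 (n = 16, 14.4 to 35.2) in the Gdf15/Cthrc1 cluster, above the next cluster, Apoe/Steap4 (7.38 ± 2.87), in 16 of 16 libraries. Ptgs2/Cxcl10 cells were at 5.37 ± 1.80, Cilp/Thbs4 cells at 2.42 ± 1.43 and Krtdap/Akr1c18 cells at 1.28 ± 0.392, and the remaining 5 clusters lay between 0.809 ± 0.253 (Cxcl13/Des) and 0.375 ± 0.145 (AY036118/Gm42418). The Gdf15/Cthrc1 cluster, 5.93% of the fibroblast-like cells, gave 49.1% of the Tnfaip6 UMIs and 41.96% of the Cd44 UMIs. Gdf15 encodes a stress-induced cytokine, and Cthrc1 a secreted protein of activated, matrix-forming fibroblasts. Cd44 was also highest there, at 1.82 ± 0.946 (0.729 to 3.63), above Cilp/Thbs4 cells (0.814 ± 0.484) in 14 of 15 libraries. Apoe/Steap4 cells were at 0.597 ± 0.301, and 6 clusters were between 0.107 and 0.167. The Ptgs2/Cxcl10 mean of 0.489 ± 0.964 rests on ZT14 replicate 1, which was at 4.19 with 22 cells, and over the 16 libraries shared with the Cxcl13/Des cluster, from which that library is absent, the mean was 0.257 ± 0.138.

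Ugdh was highest in the Ptgs2/Cxcl10 cluster, at 14.8 ± 3.58, above the Krtdap/Akr1c18 cluster (10.95 ± 2.34) in 16 of 17 libraries. The Gdf15/Cthrc1 cluster followed at 8.41 ± 2.12, Cxcl13/Des cells at 7.201 ± 1.14, Ifit1/Rsad2 cells at 6.47 ± 2.17 and Krtdap/Adamts16 cells at 6.25 ± 1.16. The lowest levels were 4.74 ± 1.05 (AY036118/Gm42418), 3.89 ± 0.835 (Sult1e1/Cxcl13), 3.58 ± 1.46 (Apoe/Steap4) and 2.12 ± 0.549 (Cilp/Thbs4). So the Cilp/Thbs4 cluster, high for Has1, was last for Ugdh, at 0.286 of the Cxcl13/Des mean and lower in 14 of 14 libraries. Besides the first pair, the differences between Cxcl13/Des and Ifit1/Rsad2 cells and between Krtdap/Adamts16 and AY036118/Gm42418 cells exceeded the SD of their paired differences.

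Has2 and Vcan were spread more evenly. Has2 went from 1.09 ± 0.432 in Ptgs2/Cxcl10 cells to 0.374 ± 0.210 in Cilp/Thbs4 cells, and of the 9 pairs of neighbours only Ifit1/Rsad2 (0.582 ± 0.202) against Cilp/Thbs4 exceeded the spread. Vcan went from 1.70 ± 0.341 in Krtdap/Adamts16 cells to 0.896 ± 0.609 in Apoe/Steap4 cells, with no neighbours apart beyond it. Hyal1 (0.0193 to 0.0354) and Hyal2 (0.0298 to 0.0595) had no such neighbours either. In Ptgs2/Cxcl10 cells, the Vcan mean of 1.55 ± 1.20 again includes ZT14 replicate 1, at 6.11, and was 1.26 ± 0.257 over the 16 libraries without it. Over all fibroblast-like cells the same library was at 3.35 for Vcan, and the other 17 were between 0.930 and 1.88.

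**Figure D2:**
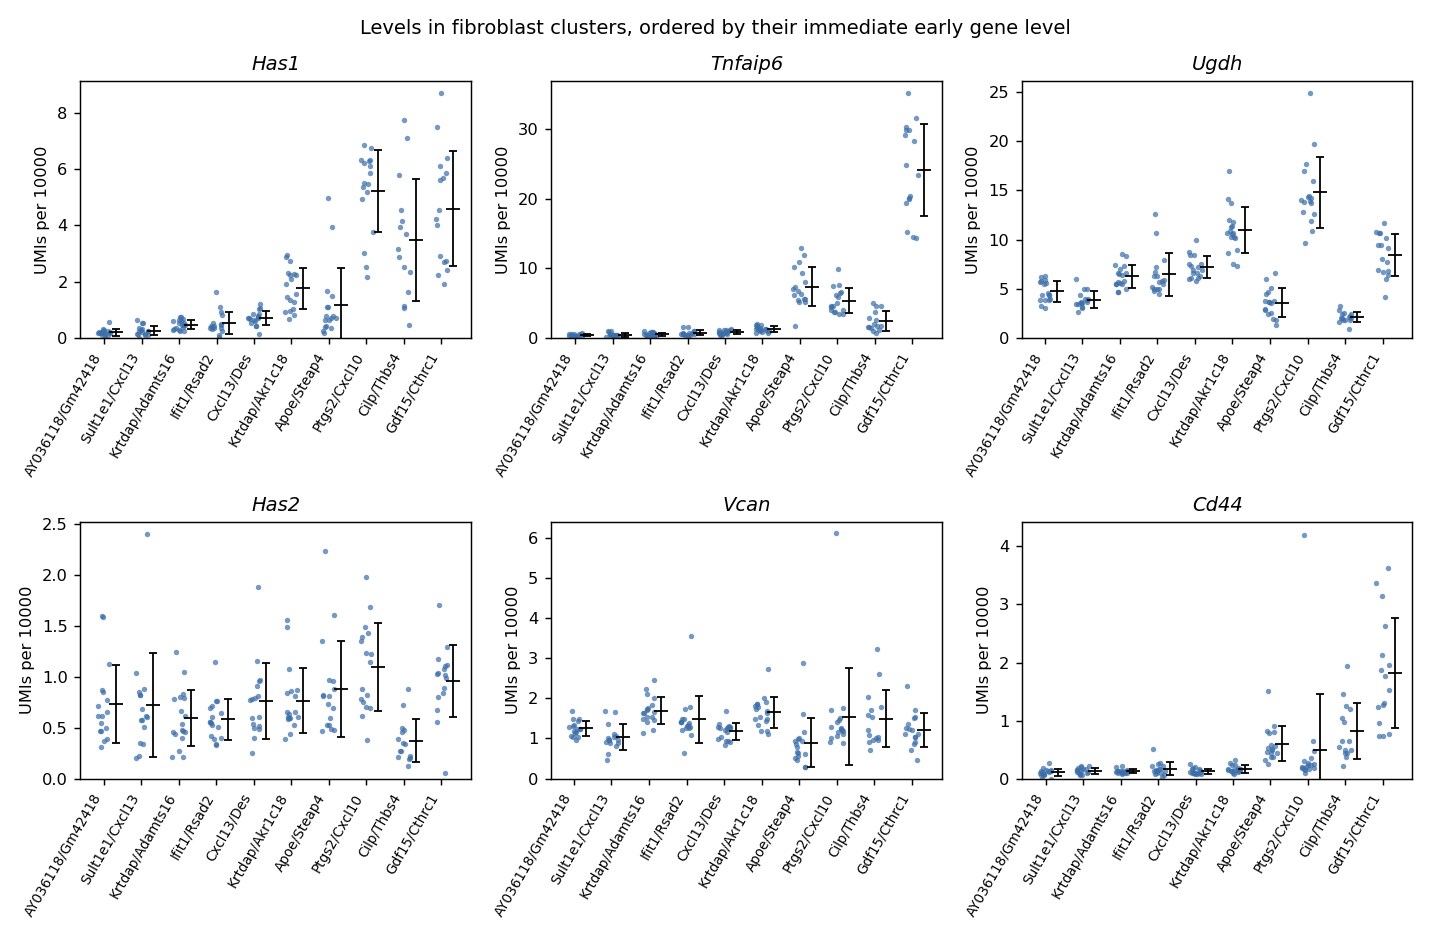
Levels (UMIs per 10000, y axis) of Has1, Tnfaip6, Ugdh, Has2, Vcan and Cd44 in the 10 fibroblast-like clusters. From left to right the immediate early gene level rises, save that Sult1e1/Cxcl13 stands before Krtdap/Adamts16 although its level is higher. Points are libraries and bars are the mean ± SD, cut off at 0; Has1 and Tnfaip6 are highest in clusters on the right, Tnfaip6 in Gdf15/Cthrc1 cells at 24.2, while Has2 and Vcan are spread over all clusters.

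Immediate early and inflammatory gene levels also differed across these clusters. Unlike the hyaluronan genes, neither list was kept out of the clustering, and Ptgs2, which names a cluster, is on the inflammatory list. Differences in these lists between clusters can therefore be built in by the clustering in part. The immediate early gene level was 190 ± 38.4 in Gdf15/Cthrc1 cells, 176 ± 46.5 in Cilp/Thbs4 cells, 167 ± 28.4 in Ptgs2/Cxcl10 cells and 139 ± 38.8 in Apoe/Steap4 cells. In the other clusters it was 67.4 (Krtdap/Akr1c18), 54.3 (Cxcl13/Des), 31.6 (Ifit1/Rsad2), 29.2 (Sult1e1/Cxcl13), 22.3 (Krtdap/Adamts16) and 18.3 (AY036118/Gm42418). The inflammatory gene level was 75.4 ± 27.4 in Gdf15/Cthrc1 cells and 52.0 ± 31.3 in Ptgs2/Cxcl10 cells. It was 18.5 in Cilp/Thbs4 cells, which were high for Has1, and 1.60 in AY036118/Gm42418 cells. Inflammatory levels of the remaining clusters are not given here. Immediate early genes are induced within minutes by many stimuli, handling of cells included, and their part in the differences between clusters was not tested.

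The same pair of lists differed between the 2 clusters that share the Krtdap, Dmkn and Sbsn markers. Krtdap/Akr1c18 cells exceeded Krtdap/Adamts16 cells 3.72-fold in Has1, 2.62-fold in Tnfaip6 and 1.75-fold in Ugdh, each in 18 of 18 libraries. For Has2 the ratio was 1.29 (13 of 18 libraries), for Cd44 1.33 (14 of 18) and for Vcan 0.975 (5 of 18). The immediate early level was 3.03-fold and the inflammatory level 5.23-fold higher in Krtdap/Akr1c18 cells, each in 18 of 18 libraries.

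At a finer resolution that gave 22 fibroblast-like clusters, the highest pooled levels of Has1 (10.3) and Ugdh (16.7) were both in a cluster of 532 cells led by Cxcl1, Ptgs2, Il6 and Cxcl10, and those of Tnfaip6 (34.2) and Cd44 (2.90) in a cluster of 513 cells led by Gdf15, Icam1 and Thbs1. Over the 18 libraries, the Has1 level of all fibroblast-like cells was higher where the inflammatory level was higher (Pearson's r = 0.650, permutation p = 0.00238, adjusted 0.0381; Spearman's rho = 0.756, permutation p = 0.00045, adjusted 0.0072). Without ZT22 replicate 1 and ZT10 replicate 1, which lay farthest from the median inflammatory level, r was 0.460 for Has1, and within zeitgeber times it was 0.559. Without the same 2 libraries r was higher for Vcan (0.872), Cd44 (0.780) and Ugdh (0.750). Ptgs2/Cxcl10 cells, led by a gene of the inflammatory list, held 43.2% of the Has1 UMIs of fibroblast-like cells. A larger share of these cells in a library and more RNA per cell therefore cannot be told apart in the Has1 relation. The permutation exchanged libraries of different zeitgeber times. Both lists were set against the 8 counted genes, and the other 15 of the 16 relations had an adjusted p of at least 0.0555 for r and 0.0835 for rho.

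The question the time series poses is whether these genes follow a daily cycle. A 24 h cosine was tested on summed counts over all genes with edgeR's quasi-likelihood test and Benjamini-Hochberg adjustment. In fibroblast-like cells, 1746 of 12387 genes (14.1%) passed an adjusted p of 0.05, and none of the 8 hyaluronan genes tested did, although 3 had an unadjusted p under 0.05 (3749 of all genes did). The median log2 amplitude was 0.19 for the 8 genes and 0.13 for all genes tested. In macrophage-like cells, 57 of 8790 genes (0.648%) passed, and 1113 had an unadjusted p under 0.05. Of the hyaluronan genes 4 could be tested (Ugdh, Hyal1, Hyal2 and Cd44), of which none passed and 2 (Hyal1 and Cd44) had an unadjusted p under 0.05. Their median log2 amplitude was 0.46, against 0.17 for all genes. DESeq2 called 0 of the hyaluronan genes in fibroblast-like cells and 1, Cd44, in macrophage-like cells, where it called 19.4% of 12380 genes and 4.6% of 4697 genes, respectively. An interaction between rhythm and cell type was tested for 8 hyaluronan genes, all but Cemip, and none of them passed. Of all genes, 53 of 10850 (0.488%) did and 1134 had an unadjusted p under 0.05. The adjusted p was 0.471 for Hyal1, 0.777 for Cd44, 0.918 for Hyal2 and 0.984 for Ugdh (edgeR). For Has1, Has2, Tnfaip6 and Vcan, which had few UMIs in macrophage-like cells, it was 0.678, 0.858, 0.966 and 0.994 (edgeR).

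Has2 had the clearest single time. In fibroblast-like cells its levels at ZT22 were 1.03, 1.12 and 1.56, against 0.526, 0.599 and 0.719 at ZT2, 0.683, 0.714 and 1.03 at ZT6, 0.593, 0.679 and 0.738 at ZT10, 0.323, 0.475 and 0.538 at ZT14, and 0.490, 0.811 and 0.948 at ZT18. The 3 libraries of ZT22 were above all others except ZT6 replicate 2, which was level with the lowest of them, and ZT14 held the lowest value of all. The fitted change was 1.77-fold from trough to peak with a peak at ZT23.8 (adjusted p = 0.128, edgeR). With time as a factor of 6 levels, which asks for any difference between times, Has2 passed (adjusted p = 0.00675, edgeR), as did 8.77% of all genes tested that way. Within the 10 clusters, Has2 passed in none, with 5 at an unadjusted p under 0.05 (edgeR). Among all genes tested, the count at that p ran from 743 of 6702 in Apoe/Steap4 cells to 2329 of 10204 in Cxcl13/Des cells. The fitted Has2 peak was within 3 h of the clusters' own mean, ZT22.3, in 10 of 10. The mean is taken from the same peaks, here and for the other hyaluronan genes. How many of all genes show such agreement was not determined for any of these counts. The clusters come from the same mice and libraries, so their fits are not independent repeats.

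Cd44 was highest in the middle of the cycle in both cell types, with overlapping groups. In fibroblast-like cells it was at 0.192, 0.650 and 0.861 at ZT10 and at 0.371, 0.414 and 0.987 at ZT14, against 0.201, 0.206 and 0.256 at ZT18. The remaining times lay between 0.201 and 0.438. The fit gave a 2.25-fold change with a peak at ZT11.3 (adjusted p = 0.0831, edgeR). With the replicate number as a block, which stands for the day of collection, Cd44 passed (adjusted p = 0.0447, beside 14.2% of all genes). With robust dispersion estimates its adjusted p was 0.140 (edgeR, beside 13.9%). Without ZT18 replicate 1 and ZT14 replicate 1, the fitted log2 amplitude of Cd44 was 0.473, against 0.586 with all libraries. In macrophage-like cells its levels were 1.22, 1.86 and 2.25 at ZT6, 1.18, 2.59 and 3.25 at ZT10 and 1.11, 1.71 and 2.54 at ZT14, against 0.518, 0.869 and 1.23 at ZT18. The fold was 2.33 and the peak ZT9.78 (adjusted p = 0.109, edgeR). The call was gained by DESeq2 (adjusted p = 0.0133, with 4.6% of genes called) and without a filter on low counts (adjusted p = 0.000711, with 1.42% called). The replicate block did not give it (0.522% of genes called). Nor did Leiden resolution 2 (adjusted p = 0.428, edgeR, 0.189% called) or robust dispersion estimates (adjusted p = 0.185, edgeR, 0.671% called). By JTK_Cycle, a rank test for periodic series, at a p under 0.05 without adjustment over genes, none of the hyaluronan genes passed in macrophage-like cells, where 3.27% of all genes did, and Hyal2 passed in fibroblast-like cells, where 7.82% did. The Hbegf/Hmox1 cluster, 180 of the 1870 macrophage-like cells, held 1900 of their 3719 Cd44 UMIs. It had at least 10 cells in 7 libraries, none of them of ZT18, and its part in the timing was not tested. In the Fcna/Cd209f cluster alone, Cd44 changed 2.76-fold with a peak at ZT11.8 (adjusted p = 0.205, edgeR, beside 0.401% of genes called).

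Within fibroblast-like clusters, Cd44 passed in 1 of the 9 in which it was tested. In Cilp/Thbs4 cells it was at 1.05, 1.26 and 1.95 at ZT14 and at 0.225, 1.21 and 1.46 at ZT10, against 0.446 and 0.495 at ZT2 and 0.367 and 0.488 at ZT22. The fitted fold was 3.14 with a peak at ZT12.4 (adjusted p = 0.0465, beside 2.25% of genes called in that cluster), and the call was lost in 13 of 15 fits that left out 1 library and with the replicate block (adjusted p = 0.0638). The fitted peak was within 3 h of the clusters' own mean, ZT13.1, in 9 of 9 clusters, which share libraries. In 5 of them the unadjusted p was under 0.05 (edgeR). Among all genes tested this held for 743 of 6702 (Apoe/Steap4) to 2329 of 10204 (Cxcl13/Des) per cluster. The 5 included Ptgs2/Cxcl10 cells (6.37-fold), where ZT14 replicate 1 was at 4.19 and the other libraries of ZT14 at 0.468 and 0.654. In Gdf15/Cthrc1 cells, which hold most Cd44 per cell among fibroblasts, the fold was 1.59 (adjusted p = 0.742). The share of those cells among fibroblast-like cells was 10.3 ± 6.95% at ZT6 and 9.97 ± 4.72% at ZT10 but 3.42 ± 0.384% at ZT14. In sums over fibroblast-like cells, more cells of a kind and more RNA per cell cannot be told apart.

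**Figure D3:**
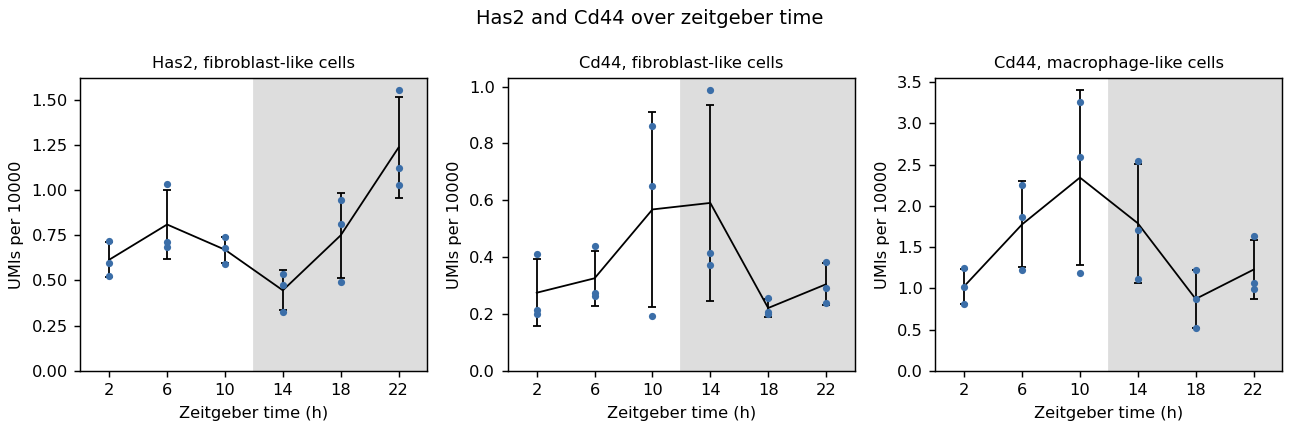
Levels (UMIs per 10000, y axis) of Has2 and Cd44 in fibroblast-like cells and of Cd44 in macrophage-like cells against zeitgeber time (h, x axis; grey, lights off). Points are libraries, lines join means and bars are the SD over 3 libraries; the 3 Has2 values at ZT22 (1.03 to 1.56) are high and Cd44 is widely spread at ZT10 and ZT14.

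Ugdh and Tnfaip6 passed the rhythm test within clusters though not over all fibroblast-like cells, where Ugdh had an adjusted p of 0.232 and Tnfaip6 of 0.229 (edgeR). Over the 10 clusters, 63 tests of a hyaluronan gene in a cluster gave 10 calls, beside 3221 of 84174 such tests (3.83%) over all genes. There were 4 for Ugdh, 5 for Tnfaip6 and 1 for Cd44, and none for Has1, Has2, Hyal2 or Vcan. Hyal1 and Cemip could be tested in no cluster. The same libraries stand behind every cluster. Whether a gene's rhythm differs between clusters was not tested.

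Ugdh was most clearly daily in AY036118/Gm42418 cells, whose leading transcripts overlap ribosomal RNA genes and whose median of 15813.5 UMIs per cell was the lowest of the 10 clusters. Its levels there were 5.81, 6.17 and 6.33 at ZT10 and 5.48 and 5.91 at ZT14, against 3.89, 3.89 and 4.55 at ZT2, 3.23, 3.85 and 4.395 at ZT18 and 3.07, 3.92 and 4.36 at ZT22. The 5 libraries of ZT10 and ZT14 were above the 9 of ZT2, ZT18 and ZT22, and overlapped with ZT6 (4.36, 5.60 and 5.69). The fold was 1.66 with a peak at ZT9.92 (adjusted p = 0.000359, edgeR, beside 5.34% of genes called in the cluster), and the call held in 17 of 17 fits without 1 library.

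The Cxcl13/Des cluster gave a smaller change at a like time. Ugdh was at 7.55, 8.38 and 9.96 at ZT10 and 7.55 and 8.78 at ZT14, above the 6.10, 6.12 and 6.87 of ZT18 and the 5.98, 6.30 and 6.56 of ZT22 (1.36-fold, peak ZT10.1, adjusted p = 0.0141, edgeR, beside 8.61%). At ZT6 it ran from 5.83 to 8.40, across these groups. Without ZT10 replicate 3 the adjusted p was 0.0601. In Krtdap/Adamts16 cells the levels were 6.51, 7.44 and 8.34 at ZT10 and 6.60, 7.33 and 8.57 at ZT14, against 5.43, 5.63 and 5.67 at ZT22 (1.41-fold, peak ZT11.7, adjusted p = 0.0212, edgeR, beside 6.14%), and the call was lost without ZT2 replicate 2 or ZT10 replicate 3, with an adjusted p of at most 0.0557. There ZT6 (4.65 to 6.96) and ZT18 (4.92 to 6.63) overlapped with ZT10 and ZT14, and ZT2 (4.69 to 6.37) lay below both. The interferon-response cluster Ifit1/Rsad2 also passed (1.73-fold, peak ZT11.7, adjusted p = 0.0432, beside 2.65%), but 9 of 17 fits without 1 library lost the call, as did the replicate block (adjusted p = 0.0563). Its highest level, 12.6, was that of ZT14 replicate 1, and the call was among those lost without that library.

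In Ptgs2/Cxcl10 cells, where the gene was highest, Ugdh changed 1.16-fold (adjusted p = 0.797), and in Krtdap/Akr1c18 cells 1.46-fold with a peak at ZT9.86 (adjusted p = 0.0665). Its fitted peak was within 3 h of the clusters' own mean, ZT11.04, in 8 of 10 clusters, which share libraries. The share of all genes with such agreement was not determined. When the clusters led by inflammatory or interferon-response genes were left out of the fibroblast-like sum, Ugdh passed (adjusted p = 0.0123, edgeR, beside 13% of all genes). The Gdf15/Cthrc1 cluster stayed in that sum, although its inflammatory gene level was above that of Ptgs2/Cxcl10 cells. Ugdh did not pass when the Gdf15/Cthrc1 cluster was left out as well (adjusted p = 0.0566, edgeR), where Cd44 did (adjusted p = 0.00637, edgeR, beside 13.7%), an alternative added after the data had been seen.

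In the 5 clusters where Tnfaip6 passed, its fitted peak lay around the end of the dark phase. The fitted peak was within 3 h of the mean, ZT22.1, in 7 of 10 clusters, the others being Gdf15/Cthrc1 (ZT12.0), Cilp/Thbs4 (ZT14.9) and Apoe/Steap4 (ZT18.5). For Tnfaip6 too, the share of all genes with such agreement was not determined. In Krtdap/Adamts16 cells its levels were 0.455, 0.815 and 0.976 at ZT22 and 0.662, 0.690 and 0.802 at ZT2, against 0.285, 0.363 and 0.517 at ZT6, 0.154, 0.238 and 0.364 at ZT10, 0.215, 0.336 and 0.510 at ZT14 and 0.293, 0.356 and 0.780 at ZT18. The libraries of ZT2 were above all those of ZT6, ZT10 and ZT14. The fold was 2.93 and the peak ZT23.6 (adjusted p = 0.00084, edgeR), and the call held in 18 of 18 fits without 1 library.

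In Cxcl13/Des cells Tnfaip6 was at 1.07, 1.10 and 1.15 at ZT22 and 0.843, 1.08 and 1.21 at ZT2, against 0.431, 0.683 and 0.732 at ZT10 and 0.597 and 0.721 at ZT14. The groups of ZT22 and ZT2 did not overlap with those of ZT10 and ZT14 (1.85-fold, peak ZT0.290, adjusted p = 0.00282, edgeR). At ZT18 the levels ran from 0.407 to 0.972. AY036118/Gm42418 cells were at 0.486, 0.489 and 0.564 at ZT22 and at 0.227 in both libraries of ZT14 (2.28-fold, peak ZT0.226, adjusted p = 0.00222, edgeR). There ZT2 (0.286 to 0.630) and ZT10 (0.196 to 0.535) overlapped. Both calls held in 17 of 17 fits without 1 library.

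The Krtdap/Akr1c18 and Ptgs2/Cxcl10 clusters also passed for Tnfaip6, with calls that leaving out 1 library could end. Krtdap/Akr1c18 cells gave a call (1.75-fold, peak ZT0.0407, adjusted p = 0.0349, edgeR, beside 3.96% of genes), with the call lost in 6 of 18 fits without 1 library. Their mean levels were 1.50 at ZT18, 1.45 at ZT22, 1.45 at ZT2 and 1.51 at ZT6, against 0.877 at ZT10 and 0.912 at ZT14. Ptgs2/Cxcl10 cells were at 6.46, 7.51 and 7.56 at ZT2 and 5.06, 6.21 and 9.87 at ZT22, above the 3.42, 3.44 and 3.72 of ZT10 (1.90-fold, peak ZT22.8, adjusted p = 0.0328, edgeR, beside 1.97%). That call was lost in 10 of 17 such fits, with an adjusted p of up to 0.105. In Gdf15/Cthrc1 cells levels ran from 14.4 to 29.9 at ZT22 and from 19.4 to 28.4 at ZT10, and the fold was 1.16 (adjusted p = 0.902, beside 1.2% of genes called). Tnfaip6 likewise had an adjusted p of 0.156 in Sult1e1/Cxcl13 cells (mean level 0.448), 0.247 in Ifit1/Rsad2 cells (0.720), 0.641 in Apoe/Steap4 cells and 0.790 in Cilp/Thbs4 cells (edgeR). Apoe/Steap4 and Sult1e1/Cxcl13 cells gave no call for any of the 9 genes, with 0.925% and 2.86% of their genes called.

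Over all fibroblast-like cells, where Gdf15/Cthrc1 cells gave 49.1% of the UMIs of the gene, Tnfaip6 levels were 2.48, 3.67 and 7.73 at ZT6 and 1.79, 2.34 and 2.94 at ZT14, and the fitted peak was ZT3.77. The immediate early gene level of fibroblast-like cells had a fitted amplitude of 11.5 ± 5.15 (jackknife SE) around a mean of 80.0, with a peak at ZT3.84, and that of the inflammatory genes 0.974 ± 2.90 around 19.0. Their part in the timing of Tnfaip6 was not tested.

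**Figure D4:**
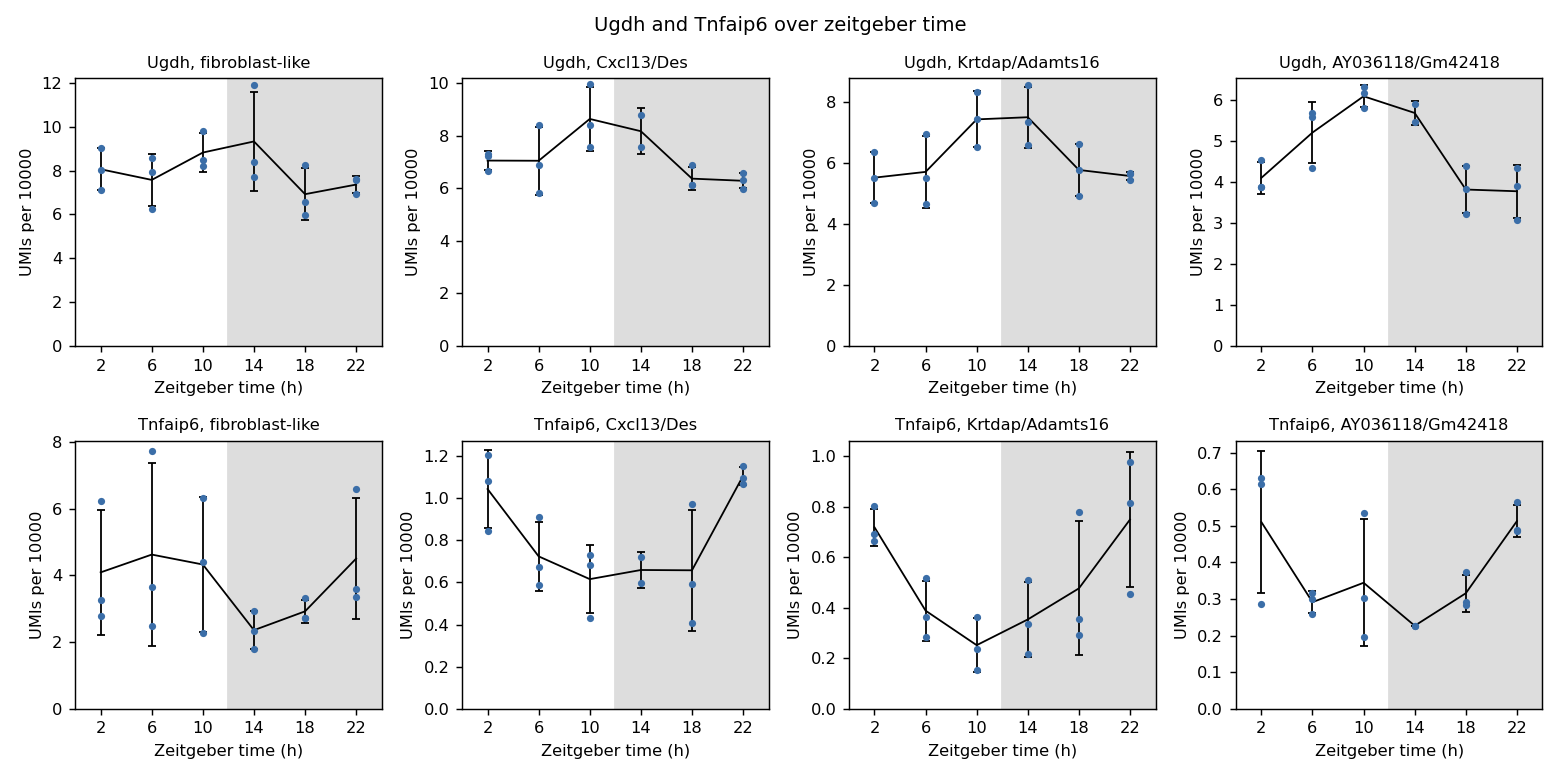
Levels (UMIs per 10000, y axis) of Ugdh (upper row) and Tnfaip6 (lower row) against zeitgeber time (h, x axis; grey, lights off) in all fibroblast-like cells and in the Cxcl13/Des, Krtdap/Adamts16 and AY036118/Gm42418 clusters. Points are libraries, lines join means and bars are the SD; within the 3 clusters Ugdh is high at ZT10 and ZT14 and Tnfaip6 at ZT22 and ZT2.

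Has1 and Vcan gave no such pattern. Has1 in fibroblast-like cells ranged from 0.943 to 2.50 at ZT2 and from 1.83 to 2.53 at ZT22, with a fitted fold of 1.03 (adjusted p = 0.996, edgeR), and its fitted peaks in clusters were scattered, with 3 of 10 within 3 h of their mean. Vcan had an adjusted p of 0.809 and 2 of 10. Hyal2 in fibroblast-like cells was at 0.0354, 0.0403 and 0.0475 at ZT2 and 0.0484, 0.0587 and 0.0715 at ZT18 (1.38-fold, peak ZT16.8, adjusted p = 0.0940, edgeR). These 2 groups did not overlap, but they are the times of lowest and highest mean, picked after the values were seen. Hyal1 in macrophage-like cells was at 0.142, 0.159 and 0.163 at ZT6, above the 0.0464, 0.0476 and 0.0782 of ZT14 and the 0.0370, 0.0511 and 0.0565 of ZT18 (adjusted p = 0.235, edgeR). At ZT10 it spread from 0.0311 to 0.206, across these groups. ZT6, ZT14 and ZT18 were also picked after the values were seen, and only 284 Hyal1 UMIs stood behind the 18 libraries. The Hbegf/Hmox1 cluster, in which Hyal1 was 10.4-fold higher, held at least 10 cells in 7 libraries, none of them of ZT18.

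**Figure D5:**
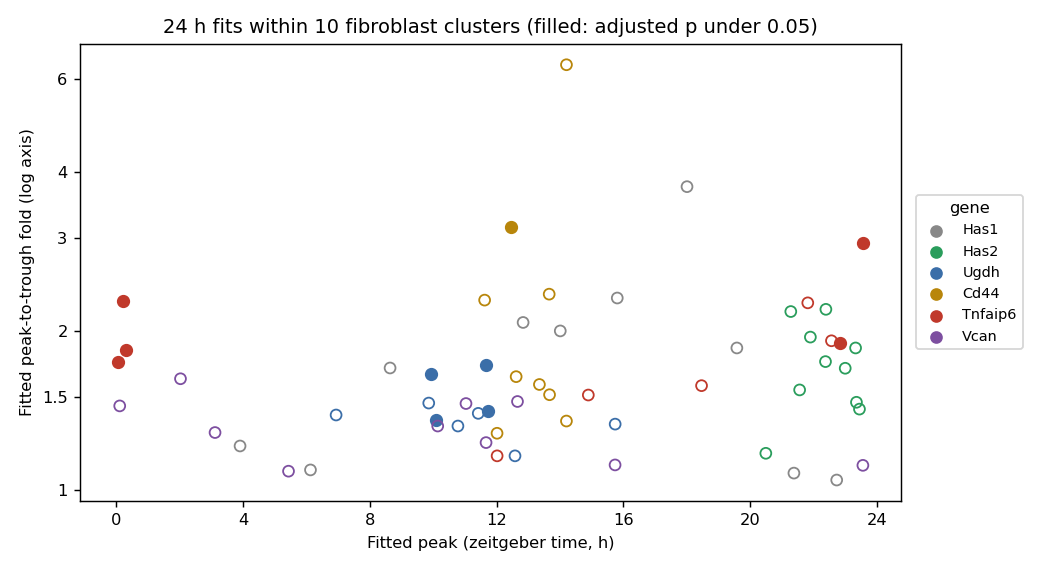
Fitted peak (zeitgeber time in h, x axis) and peak-to-trough fold (y axis, log scale) of Has1, Has2, Ugdh, Cd44, Tnfaip6 and Vcan in the fibroblast-like clusters. Each point is a gene in a cluster, filled where the adjusted p is under 0.05 (edgeR); the 4 filled Ugdh points lie between ZT9.92 and ZT11.7 and the 5 filled Tnfaip6 points between ZT22.8 and ZT0.290.

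The wider pathway was read from a list of 41 other genes. In fibroblast-like cells 24 could be tested and 3 passed: 2 of 7 for sugar precursors and synthesis, none of 4 for turnover, none of 4 for receptors, none of 4 for binding and cross-linking, and 1 of 5 for proteases that cut versican. Their share lies near the 14.1% of all genes. Uap1, which makes UDP-N-acetylglucosamine, the other sugar of the chain, was at 3.50, 4.23 and 4.56 at ZT14 and 1.87, 2.30 and 2.44 at ZT2, 2 groups that did not overlap (1.65-fold, peak ZT13.3, adjusted p = 0.0013, edgeR). Gfpt1, the first enzyme towards that sugar, peaked at ZT0.137 (1.32-fold, adjusted p = 0.0289, edgeR), with 0.742, 0.755 and 0.765 at ZT22 against 0.558, 0.577 and 0.591 at ZT14. Adamts5, a protease that cuts versican, was at 11.8, 12.7 and 13.1 at ZT2 and 7.52, 8.16 and 8.83 at ZT10 (1.46-fold, peak ZT1.82, adjusted p = 0.00292, edgeR). For these 3 genes, the times set side by side were picked after the values were seen.

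Among the pathway genes counted in fibroblast-like cells, for which no order is read from levels per UMI, were Adamts5 (9.53 ± 1.69), Itih5 (6.77 ± 0.565), which encodes a heavy chain of the inter-alpha-inhibitor family, Gfpt2 (5.41 ± 0.643), a second form of the Gfpt1 enzyme, Uap1 (2.91 ± 0.702) and Adamts1 (2.29 ± 0.419), another protease of versican. Those counted in macrophage-like cells included the hyaluronan receptor Lyve1 (8.81 ± 4.53), the scavenger receptor Stab1 (6.85 ± 1.03), and the lysosomal enzymes Hexa (5.62 ± 0.907) and Gusb (1.15 ± 0.248), which take apart the fragments left by hyaluronidases. There 19 genes could be tested and none passed, with 4 at an unadjusted p under 0.05. Lyve1 was at 3.07, 3.95 and 4.12 at ZT6 and 8.36, 16.1 and 18.9 at ZT18, 2 groups that did not overlap (2.59-fold, peak ZT17.8, adjusted p = 0.0855, edgeR). These times were picked after the values were seen. The Hbegf/Hmox1 cluster had at least 10 cells in no library of ZT18, and its part in the Lyve1 levels was not tested.

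The genes most like each hyaluronan gene were found by the correlation of log2 mean levels over 16 populations, which share libraries and differ in depth and in whether they are fibroblasts, so r is a description. Ugdh was most like Gfpt2 (r = 0.980), Plat (0.972) and St7 (0.970), and Has1 most like Ccn1 (0.924), Zfp469 (0.915) and Irx1 (0.900). For Has2 the first gene was Ackr1 (0.990), for Vcan Hmgn3 (0.989), for Cd44 H3f3b (0.983) and for Tnfaip6 Phlda1 (0.891), followed by Gadd45g (0.890) and Serpina3n (0.889). Hyal1 was most like Gm43728 (0.953) and Hyal2 most like Rab11fip5 (0.946). No value could be given for Cemip.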

How the data were processed

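Per the labels and the study's methods, the authors aligned the reads of each library to mm10 with Cell Ranger 3.1.0 and deposited unnormalised UMI counts per gene and barcode, which were used as deposited. Cells with 850 to 7800 genes and less than 13% mitochondrial UMIs were kept, and doublets were not removed (an alternative removed the 215 cells with the highest Scrublet scores). Libraries held 4850221 to 40827440 UMIs over all barcodes. Cells were clustered with scanpy 1.11.5 (2000 variable genes without the hyaluronan, pathway and clock genes, 30 principal components, 15 neighbours, Leiden resolution 0.8) in Python 3.11.15, and cell types were named from marker lists, of which at least 3 genes had to be detected.

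Counts were summed per library and population of at least 10 cells, and a cluster was tested where at least 2 libraries of every time were left. Cosine and sine terms of a 24 h period were tested with edgeR 4.0.16 (R 4.3.3; TMM, filterByExpr, quasi-likelihood F test, Benjamini-Hochberg adjustment over all genes tested), where replicates were separate mice. The difference between cell types was an interaction in the same kind of fit, with the library as a block. The step was tested on simulated data. Alternatives were DESeq2 1.42.0 and its size factors, no TMM, no filter on low counts, the replicate block, time as a factor, JTK_Cycle at periods of 20, 24 and 28 h, doublet removal, Leiden resolution 2, at least 20 cells, populations left out and each library left out in turn. Likeness used log2(level + 0.01) of genes reaching a level of 0.05. Replicate numbers mark the collection day in the labels. As a check, the deviations of same-numbered libraries had a mean correlation of 0.0527 in fibroblast-like cells (lowest -0.162, over 0.1 in 13 of 45 pairs) and of 0.0507 in macrophage-like cells (lowest -0.426, over 0.1 in 20 of 45 pairs). The genes named are the 9 hyaluronan genes, pathway genes that passed the rhythm test, the 5 pathway genes of highest level and up to 3 like genes each. The level of 1 pathway gene is not reported here. Genes of the inflammatory and immediate early lists are named as list members, and Lyve1, Arntl and Dbp with their values. The files spell Tmem2 of the pathway list as Cemip2. The genes, lists and tests were chosen with earlier results of these data known.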

Additional observations from a re-analysis of the deposited data

How the results depend on the processing

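Against 0 of the 9 genes in fibroblast-like cells, 1 passed with the replicate block (Cd44), with zeitgeber time as a factor (Has2) and by JTK_Cycle (Hyal2). Without the clusters led by inflammatory or interferon-response genes 1 passed (Ugdh), as did 1 without these and the Gdf15/Cthrc1 cluster (Cd44). Against 0 in macrophage-like cells, 1 (Cd44) passed by DESeq2's likelihood ratio test and without a filter on low counts. Leaving out 1 library gave 0 to 1 in fibroblast-like cells (Hyal2 without ZT6 replicate 3, Cd44 without ZT10 replicate 3), 0 to 1 in macrophage-like cells (Cd44 without ZT22 replicate 2) and 0 throughout for the difference between them. The 10 calls over fibroblast-like clusters became 5 without ZT10 replicate 3, 6 without ZT2 replicate 3 and 11 without ZT14 replicate 1, the range over all libraries left out being 5 to 11. They became 8 with the replicate block and 8 with at least 20 cells, when 5 clusters could be tested. The block ended the calls of Ugdh in Ifit1/Rsad2 cells and Cd44 in Cilp/Thbs4 cells and gained that of Cd44 in fibroblast-like cells, and changed no other call. Without both ZT18 replicate 1 and ZT14 replicate 1, 0 of the 9 genes passed in fibroblast-like cells (15.8% of all genes did) and 0 in macrophage-like cells (1.13%). The calls over clusters stayed at 10. This alternative was chosen after seeing the data, like the robust dispersion estimates and the removal of Gdf15/Cthrc1 cells. No share of all genes is given for the fits without 1 library or for clusters under alternatives. Of 741 adjusted p-values of single genes under alternatives, 687 kept their side of the threshold, 45 lost a call and 9 gained one. Only the 10 calls over clusters could lose a call, so the 741 are not the base for the losses. Cluster tests without a call in the main fit are not among the 741, so the 9 leave out calls gained within clusters. Of 36 mean levels, 1 moved by more than its SD (Vcan in macrophage-like cells, 0.130 at resolution 2 against 0.0344). The causes were not tested. Depth limits Cemip, Hyal1 and Hyal2, whose UMIs per cluster and library were few.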
